A study of Mus musculus with 7 samples.

Results

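Transcripts of 9 inflammasome and pyroptosis genes were examined in the kidneys of lupus-prone mice: the sensors Nlrp3, Nlrp1b and Naip2, the sensor partner Nlrc4, the adaptor Pycard, the caspases Casp1 and Casp4, and the pore-forming gasdermins Gsdmd and Gsdme. They were chosen by gene symbol, matched to 9 of 53465 rows of the count table, and all 9 were among the 15774 genes that passed the filter on low counts. Kidney RNA came from 4 MRL/lpr mice treated with AZD1152, which is converted in the body to an inhibitor of Aurora kinase B, and from 3 MRL/lpr mice treated with vehicle. All 7 mice carry the lpr allele of Fas, which disables a death receptor, on the MRL background that develops lupus-like nephritis, and no mice of a healthy strain were part of the comparison. Neither age nor dosing is stated in the sources used here. Each mouse gave 1 poly(A)-selected library of whole kidney tissue.

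An inflammasome is a protein complex that assembles when a cytosolic sensor meets a danger or microbial signal. The sensors recruit the adaptor ASC, encoded by Pycard, which gathers and activates caspase-1. That protease matures interleukin-1 beta and interleukin-18 and cuts gasdermin D, whose freed end opens pores in the plasma membrane, a lytic death called pyroptosis. Mouse Casp4 encodes caspase-11, which binds bacterial lipopolysaccharide directly and also cuts gasdermin D. Gasdermin E links apoptosis to membrane rupture. In inflamed kidneys these genes are best known from infiltrating mononuclear phagocytes, and parts of the machinery are also present in tubule cells.

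In AZD1152 kidneys Gsdmd, Casp1 and Naip2 fell, to between 0.455 and 0.58 of the vehicle level. These were 3 of the 9 genes, or 33.3%, beside 4.81% of all 15774 genes tested that were called lower. No member was called higher (0 of 9 in edgeR, in DESeq2, in limma-voom and at an unadjusted p under 0.05), where 3.02% of all genes were. 8 of the 9 log2 fold changes were negative, with a median of -0.89 over the 9 members against -0.00060 over all genes tested. In 6 members every AZD1152 value lay below every vehicle value, which held for 11.6% of all genes. Without vehicle replicate 1 or vehicle replicate 3, 0 of the 9 passed the test, so the 3 calls need those libraries. Over all genes, 272 of 16061 and 163 of 15975 were called lower in these fits, against 759 of 15774 in the main fit. The members were picked with earlier results of these data known, so these shares describe the 9 genes.

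**Figure D1:**
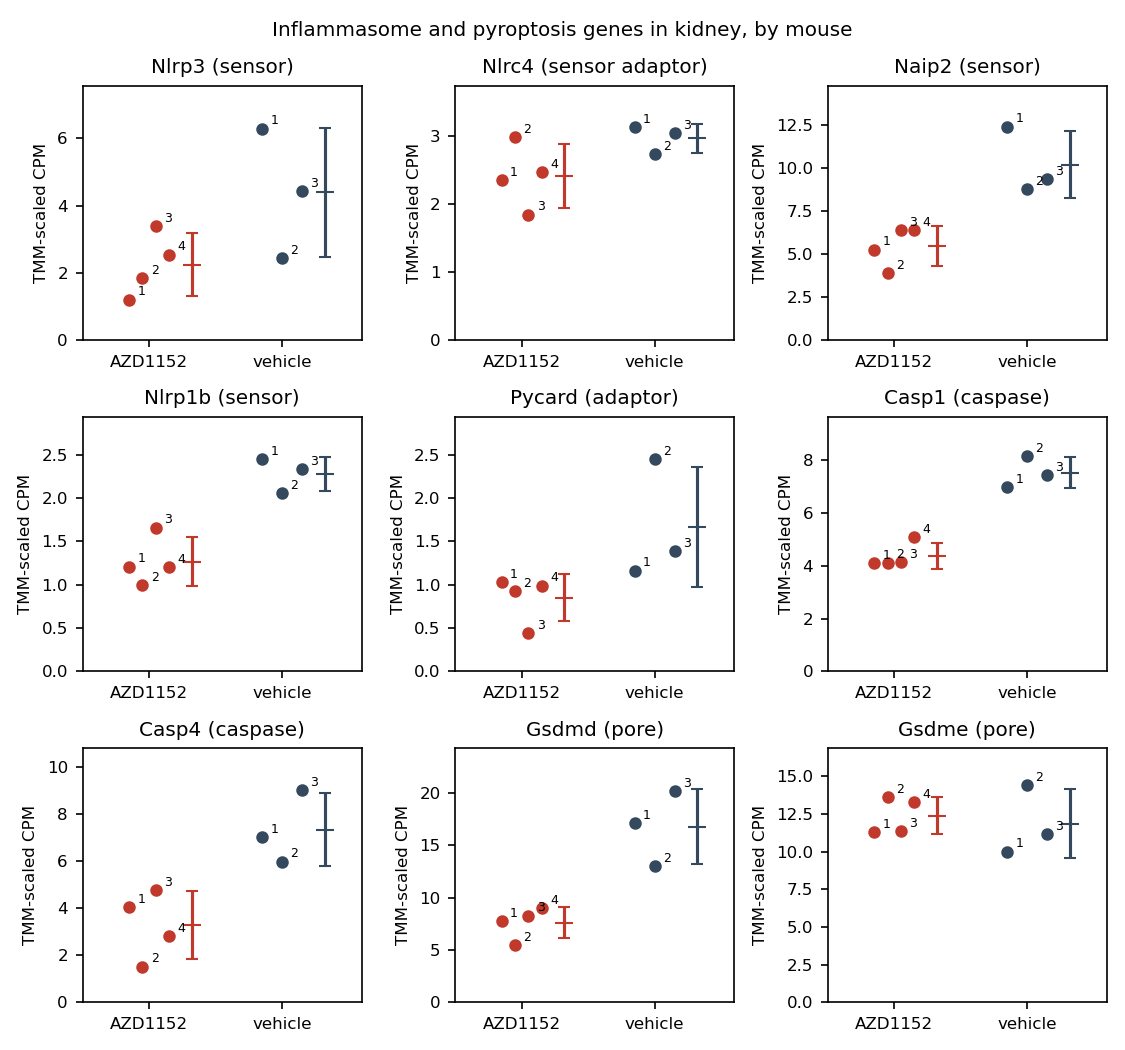
TMM-scaled CPM (read counts scaled to library size, vertical axes from 0) of each of the 9 genes in the 4 AZD1152 kidneys and the 3 vehicle kidneys, with the replicate number beside each point and the mean ± SD to its right. The groups overlap for Nlrp3, Nlrc4 and Gsdme and stand apart for the other 6.

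The libraries held 14692113 to 17036862 counts, and 3 counts, the limit that a count of 0 allows, correspond to 0.166 to 0.212 CPM for counting error only. Kidney markers were present throughout: the summed level of 14 proximal tubule markers was 20364 to 25422 CPM in AZD1152 kidneys and 13897 to 17219 CPM in vehicle kidneys, with 6 of 14 called higher, 0 lower and a median log2 fold change of 0.61. Markers of the distal nephron (2 of 10 called higher, median 0.26), podocytes (0 of 6 called by edgeR, median 0.12) and endothelium (0 of 7, median -0.0016) overlapped between the groups in their summed levels, of 4025 to 6653, 527 to 764 and 449 to 499 CPM in AZD1152 kidneys and 5326 to 6394, 589.7 to 617 and 386 to 512 CPM in vehicle kidneys. At an unadjusted p under 0.05, 1 podocyte marker was lower and 1 higher, and 1 endothelial marker was higher, with 0 called by DESeq2 in either list. Of the 4 leukocyte lists, the macrophage and T cell markers were lower where the members were, while the neutrophil and B cell lists held no edgeR call. The 20 macrophage and monocyte markers summed to 612.0 to 933.1 CPM in AZD1152 kidneys and 1392 to 1817 CPM in vehicle kidneys, with 11 of 20 called lower, a median log2 fold change of -0.95 and 0 of the markers at 0 counts. The 13 T cell markers summed to 51.9 to 81.5 CPM in AZD1152 kidneys and 111 to 181 CPM in vehicle kidneys, with 8 of 13 called lower and a median of -1.35. The 20 interferon-induced genes summed to 297 to 480 CPM in AZD1152 kidneys and 669 to 739 CPM in vehicle kidneys, with 12 called lower and a median of -0.94. The called genes included Oasl2, Irf7, Ifi44, Stat2, Rtp4, Oas1a, Xaf1, Oas3, Bst2, Isg15 and Oas2, with log2 fold changes between -1.48 and -0.75. The other 8 were not called. Of these, Cmpk2, Ifit1, Rsad2, Ifit3 and Mx2 overlapped between the groups, with log2 fold changes between -0.66 and -0.15. Neutrophil markers, from cells rich in several inflammasome transcripts, summed to 12.0 to 32.2 CPM in AZD1152 kidneys and 28.4 to 34.5 CPM in vehicle kidneys, with 0 of 7 tested called (2 lower at an unadjusted p under 0.05, 1 lower in DESeq2). B cell and plasma cell markers summed to 539, 142, 38.5 and 128 CPM in AZD1152 kidneys, against 137, 829 and 675 CPM in vehicle kidneys, with 0 of 9 called in edgeR (3 lower at an unadjusted p under 0.05, 2 lower in DESeq2) and a median of -0.91. AZD1152 replicate 1 was the highest of its group and vehicle replicate 1 the lowest of its own. In bulk tissue, fewer cells of a type and less RNA per cell cannot be told apart, and the part of these shifts in the results below was not tested. With libraries scaled by their totals instead of TMM, the median over all genes shifted to -0.15 on the log2 scale, and the share of calls that were higher was then 13.5% against 38.5% with TMM.

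Since 8 of the 9 fold changes pointed one way, the sequences at the start sites were compared. The 250 bases upstream of the start were read for 8 members, all but Gsdmd, from the RefSeq promoter table (GRCm38.p6), which gave 11 start sites for them. Shown here are those of Casp1 and Casp4, neighbours on chromosome 9, of Naip2, which fell, and of Gsdme, which was not called. Each runs 5′ to 3′ in the direction of the gene, and capitals mark a kappa B match in Casp4 and a GC box match in Gsdme.
Casp1, chr9:5298267-5298516, plus strand: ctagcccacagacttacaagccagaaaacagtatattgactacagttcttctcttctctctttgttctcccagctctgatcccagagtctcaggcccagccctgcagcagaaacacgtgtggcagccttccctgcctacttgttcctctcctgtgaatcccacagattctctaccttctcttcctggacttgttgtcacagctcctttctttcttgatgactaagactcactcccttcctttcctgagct
Casp4, chr9:5308599-5308848, plus strand: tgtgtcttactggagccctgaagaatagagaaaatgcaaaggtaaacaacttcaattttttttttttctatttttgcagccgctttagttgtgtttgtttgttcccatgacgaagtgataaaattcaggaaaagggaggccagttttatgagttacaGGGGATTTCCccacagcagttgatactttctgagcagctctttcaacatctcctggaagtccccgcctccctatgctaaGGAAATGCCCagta
Naip2, chr13:100202123-100202372, minus strand: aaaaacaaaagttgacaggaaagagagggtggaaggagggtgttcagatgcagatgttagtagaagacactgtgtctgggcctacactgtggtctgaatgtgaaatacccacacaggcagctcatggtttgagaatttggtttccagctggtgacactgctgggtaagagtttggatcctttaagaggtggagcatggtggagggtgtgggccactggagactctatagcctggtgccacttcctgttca
Gsdme, chr6:50261770-50262019, minus strand: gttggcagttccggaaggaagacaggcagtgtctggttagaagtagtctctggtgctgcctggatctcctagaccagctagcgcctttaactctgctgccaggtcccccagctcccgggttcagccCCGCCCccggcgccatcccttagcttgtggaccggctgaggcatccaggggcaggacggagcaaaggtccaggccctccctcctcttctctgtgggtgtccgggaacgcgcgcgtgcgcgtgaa

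Casp1 and Naip2 held none of the 5 patterns searched. Casp4 held 2 matches to the kappa B pattern GGGNNTTTCC, bound by NF-kB, GGGGATTTCC beginning 93 bases before the upstream RefSeq start and GGAAATGCCC on the other strand beginning 14 bases before it. A match on either strand was present in 1 of 8 members, at both of its overlapping start windows, and in 1.41% of all 32851 promoters searched. Members were counted if any of their start sites matched, while the shares of all promoters were counted per start site. The interferon-stimulated response element core GAAANNGAAA and the gamma-activated site TTCNNNGAA, the elements bound by interferon-activated factors, had 0 matches among the 8 members, against 2.98% and 7.02% of all promoters. At shares this low, 0 matches do not set 8 members apart from other promoters, and Gsdmd was not searched. GAGGAAG, a core bound by the myeloid factor PU.1 and its ETS relatives, was present upstream of Nlrp3, Nlrp1b and Pycard (3 of 8) and in 10.6% of all promoters. In Nlrp3 and Nlrp1b it was found at 1 start site and not at the other. A GC box, GGGCGG, was found in Gsdme alone of the 8, against 32.7% of all promoters. No 2 matches overlapped. A match is a description of these letters and does not show a bound site, and the window covers 250 bases only.

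Among the sensors, Naip2 fell. Naip2 (ENSMUSG00000078945; GRCm38 chromosome 13, 100144063 to 100202092, minus strand) encodes a receptor that binds a rod protein of bacterial secretion systems and then engages NLRC4. In CPM, read counts scaled to library size, it had 5.26, 3.91, 6.38 and 6.37 in AZD1152 replicates 1 to 4, against 12.4, 8.78 and 9.37 in vehicle replicates 1 to 3. The groups did not overlap, and vehicle replicate 1 was the highest of the 7. Its log2 fold change was -0.89 ± 0.20 (SE; adjusted p = 0.0351 by the Benjamini-Hochberg method, edgeR). Naip2 lies 9.65 kb from Naip5 in a cluster of near-identical genes, so its count depends on how shared reads were assigned. With the counts of Naip1, Naip2, Naip5 and Naip6 summed, the log2 fold change was -0.93 ± 0.18 (adjusted p = 0.0215, edgeR). The Naip2 call was lost without AZD1152 replicate 1, 2 or 4 (adjusted p = 0.0632, 0.0526 and 0.0616, edgeR) and without vehicle replicate 1 or 3 (0.113 and 0.097).

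Nlrc4 (ENSMUSG00000039193; chromosome 17, 74425438 to 74459142, minus strand), which assembles with NAIP receptors and recruits caspase-1, did not pass the test. It had 2.36, 2.99, 1.85 and 2.48 CPM in AZD1152 kidneys, against 3.14, 2.74 and 3.05 CPM in vehicle kidneys. AZD1152 replicate 2 lay inside the vehicle range. The log2 fold change was -0.30 ± 0.22 (adjusted p = 0.439, edgeR), and 2 SE either side of it ran from -0.73 to 0.13. The log2 ratio of Naip2 to Nlrc4 within a library averaged 1.13 ± 0.56 in AZD1152 kidneys and 1.72 ± 0.19 in vehicle kidneys (SD, n = 4 and 3), and the groups overlapped. The mean ratio differed by -0.59 ± 0.30 (SE), and whether the 2 genes differed in their response was not tested.

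Nlrp3 (ENSMUSG00000032691; chromosome 11, 59541568 to 59566956, plus strand), the sensor of many sterile danger signals and of ion fluxes across the membrane, varied between mice more, relative to its mean, than Naip2, Nlrc4 and Nlrp1b did in either group. It had 1.21, 1.86, 3.38 and 2.55 CPM in AZD1152 kidneys, against 6.28, 2.45 and 4.43 CPM in vehicle kidneys. Vehicle replicate 2 lay below AZD1152 replicates 3 and 4. The log2 fold change of -0.97 ± 0.39 did not pass the test (adjusted p = 0.168, edgeR). It ran from -1.25 to -0.62 when 1 library at a time was left out, and no such fit called it.

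Nlrp1b (ENSMUSG00000070390; chromosome 11, 71153102 to 71230733, minus strand), the mouse sensor cleaved by anthrax lethal factor, had 15 to 26 counts in AZD1152 libraries and 36 to 42 counts in vehicle libraries. It had 1.21, 0.995, 1.66 and 1.20 CPM in AZD1152 kidneys, against 2.44, 2.05 and 2.33 CPM in vehicle kidneys. The groups did not overlap, and the log2 fold change was -0.84 ± 0.24 (adjusted p = 0.0701, edgeR), short of the threshold. With Nlrp1a and Nlrp1b summed it was -0.87 ± 0.24 (adjusted p = 0.0601, edgeR). Scaling by total counts alone gave a call at -0.99 (adjusted p = 0.0426, edgeR), where 16 alternatives ranged up to 0.213. Nlrp1b differs in sequence between mouse strains, and the effect of mapping MRL reads to the GRCm38 build, which comes from C57BL/6J, was not tested.

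Pycard (ENSMUSG00000030793; chromosome 7, 127989708 to 127993867, minus strand), the adaptor that links sensors to caspase-1, had the fewest reads of the 9 genes, from 7 to 17 counts in AZD1152 libraries and from 20 to 43 counts in vehicle libraries. These were 1.03, 0.929, 0.447 and 0.991 CPM in AZD1152 kidneys, against 1.16, 2.45 and 1.39 CPM in vehicle kidneys. The groups did not overlap, but vehicle replicate 1 and AZD1152 replicate 1 lay close together. The log2 fold change of -0.97 ± 0.38 did not pass the test (adjusted p = 0.15, edgeR). It was -0.58 ± 0.39 without vehicle replicate 2, the highest library, and between -1.17 and -0.77 without any 1 of the other 6. Of the 3800 exonic bases of Pycard, 485 (12.8%) are shared with Gm45205 on the other strand, which had 4 counts over the 7 libraries. How ambiguous reads were counted is not stated in the sources used, and the part of this overlap in the low level of Pycard was not tested.

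Of the caspases, Casp1 fell. Casp1 (ENSMUSG00000025888; chromosome 9, 5298517 to 5307265, plus strand) had 4.11, 4.11, 4.15 and 5.10 CPM in AZD1152 kidneys, against 6.98, 8.15 and 7.43 CPM in vehicle kidneys. The AZD1152 values were close together, with replicate 4 above the other 3, and all lay below the vehicle values. The log2 fold change was -0.79 ± 0.15 (adjusted p = 0.0231, edgeR). Leaving out any vehicle replicate (1, 2 or 3) ended the call (adjusted p = 0.0537, 0.0518 and 0.0784, edgeR), where the log2 fold change was between -0.83 and -0.72.

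Casp4 (ENSMUSG00000033538; chromosome 9, 5308828 to 5336783, plus strand) begins 1562 bases after the end of Casp1 on the same strand. It had 4.05, 1.53, 4.78 and 2.83 CPM in AZD1152 kidneys, against 7.04, 5.99 and 9.04 CPM in vehicle kidneys. The groups did not overlap, while the AZD1152 mice ranged widely, with replicate 2 lowest. The log2 fold change of -1.15 ± 0.33 was the most negative of the 9 but did not pass the test (adjusted p = 0.0697, edgeR). It was called by DESeq2 at -1.15 (DESeq2 adjusted p = 0.0102) and by edgeR with no filter on low counts (adjusted p = 0.0258), in a range of 0.0102 to 0.25 over 15 alternatives. The log2 ratio of Casp4 to Casp1 averaged -0.50 ± 0.72 in AZD1152 kidneys and -0.05 ± 0.36 in vehicle kidneys (SD), with overlapping groups. Casp12, the next gene of the cluster 8.65 kb beyond Casp4, encodes a caspase that was described as a restraint on caspase-1 in mice. It had 3.14, 2.85, 4.53 and 3.40 CPM in AZD1152 kidneys, against 9.95, 7.36 and 10.2 CPM in vehicle kidneys, and fell by 1.40 ± 0.20 on the log2 scale (adjusted p = 0.0108, edgeR).

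Of the gasdermins, Gsdmd fell and Gsdme was not called. Gsdmd (ENSMUSG00000022575; chromosome 15, 75862327 to 75867408, plus strand), the pore former of pyroptosis, had 7.73, 5.51, 8.29 and 8.99 CPM in AZD1152 kidneys, against 17.2, 13.0 and 20.2 CPM in vehicle kidneys. The groups stood well apart, with the lowest vehicle kidney above the highest AZD1152 kidney. Its log2 fold change was -1.14 ± 0.20 (adjusted p = 0.0161, edgeR), the smallest p of the 9. Leaving out vehicle replicate 1 or 3 ended the call (adjusted p = 0.052 and 0.0691, edgeR).

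Gsdme (ENSMUSG00000029821; chromosome 6, 50188888 to 50263862, minus strand) had 11.3, 13.6, 11.4 and 13.3 CPM in AZD1152 kidneys, against 10.01, 14.4 and 11.1 CPM in vehicle kidneys. The groups overlapped throughout. The log2 fold change was 0.06 ± 0.15 (adjusted p = 0.844, edgeR), and 2 SE either side of it ran from -0.24 to 0.36. Its sign turned to -0.09 under total-count scaling and to -0.04 without vehicle replicate 1. The log2 ratio of Gsdmd to Gsdme within a library was -0.54, -1.29, -0.45 and -0.56 in AZD1152 kidneys, against 0.77, -0.15 and 0.85 in vehicle kidneys. All 4 AZD1152 ratios lay below all 3 vehicle ratios. The mean ratio differed by -1.20 ± 0.37 (SE), a description of a pair chosen after the values were seen.

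The levels of different genes can be set against each other only per length. In CPM per kilobase of exons, Gsdmd led with 3.21 ± 0.63 in AZD1152 kidneys and 7.06 ± 1.52 in vehicle kidneys, followed by Casp1 with 2.92 ± 0.32 and 5.02 ± 0.40 (SD, n = 4 and 3). In AZD1152 kidneys the spreads of both genes overlapped. Naip2 came next with 1.13 ± 0.24 in AZD1152 kidneys and 2.10 ± 0.40 in vehicle kidneys. Casp4 (0.889 ± 0.39 and 1.98 ± 0.42) and Naip2 did not differ beyond their spread in either group. Nlrp3, Gsdme and Nlrc4 were between 0.503 and 0.972 in AZD1152 kidneys and between 0.619 and 1.08 in vehicle kidneys. Pycard and Nlrp1b were lowest, at 0.223 ± 0.071 and 0.201 ± 0.044 in AZD1152 kidneys and 0.439 ± 0.18 and 0.361 ± 0.032 in vehicle kidneys, and did not differ beyond their spread in either group. The order depends on the gene model. Per kilobase of the longest coding transcript, Casp4 stood at 2.30 ± 1.0 in AZD1152 kidneys and 5.12 ± 1.08 in vehicle kidneys. Gsdme stood at 2.83 ± 0.28 and 2.71 ± 0.52. Both genes have long exonic stretches outside that transcript. Pycard has 3800 bases in either model, so its place with a shorter transcript was not tested.

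**Figure D2:**
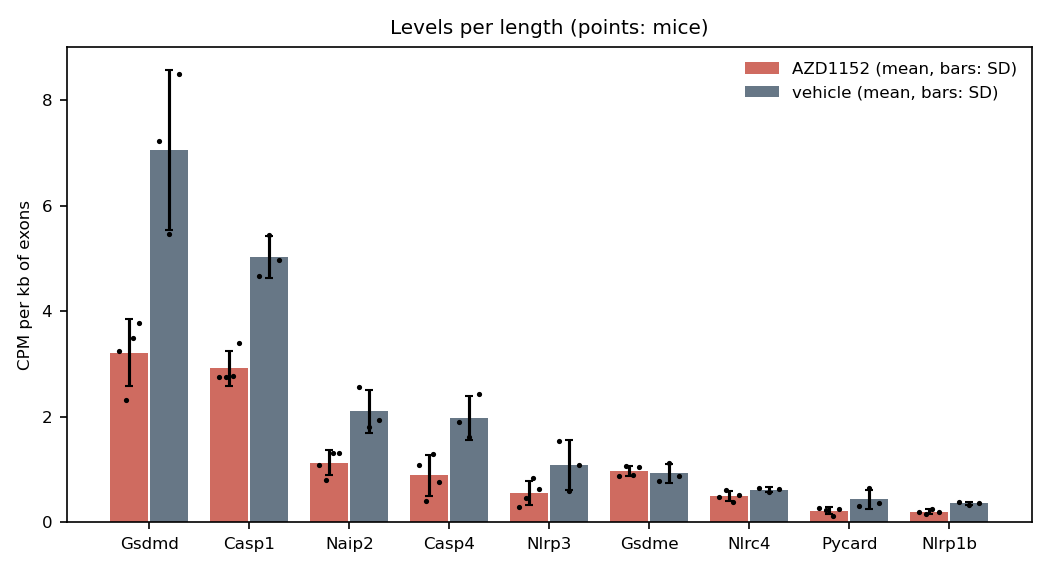
Mean level of each gene in CPM per kilobase of exons (vertical axis from 0) in AZD1152 and vehicle kidneys, with SD bars and 1 point per mouse, ordered by the vehicle mean. Gsdmd and Casp1 stand above the other 7 genes in both groups.

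Set against macrophage markers in the same library, 7 members overlapped between the groups. The mean log2 CPM of the 20 macrophage markers was 4.17 in AZD1152 kidneys and 5.27 in vehicle kidneys, a difference of -1.10 ± 0.19 (SE). Ly6c2, among the 20, had the most negative log2 fold change, -1.93 ± 0.79, with overlapping groups. Like the summed B and plasma cell markers, it was highest of its group in AZD1152 replicate 1 and lowest of its group in vehicle replicate 1. The mean without Ly6c2 was not computed. The level of Gsdmd minus that of the markers averaged -1.24 in AZD1152 kidneys and -1.22 in vehicle kidneys, a difference of -0.02 ± 0.18. For Casp1 and Naip2 the differences were 0.33 ± 0.20 and 0.21 ± 0.16, and for Casp4, Nlrp3, Nlrp1b and Pycard they lay between -0.12 and 0.30. Gsdme and Nlrc4 stood apart from the markers, with differences of 1.18 ± 0.29 and 0.80 ± 0.28 and every AZD1152 library above every vehicle library. The marker mean itself changed by -1.10, so any gene with little change of its own stands above it in this measure. These values describe how the members and the marker list moved side by side, and no test was made of them.

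**Figure D3:**
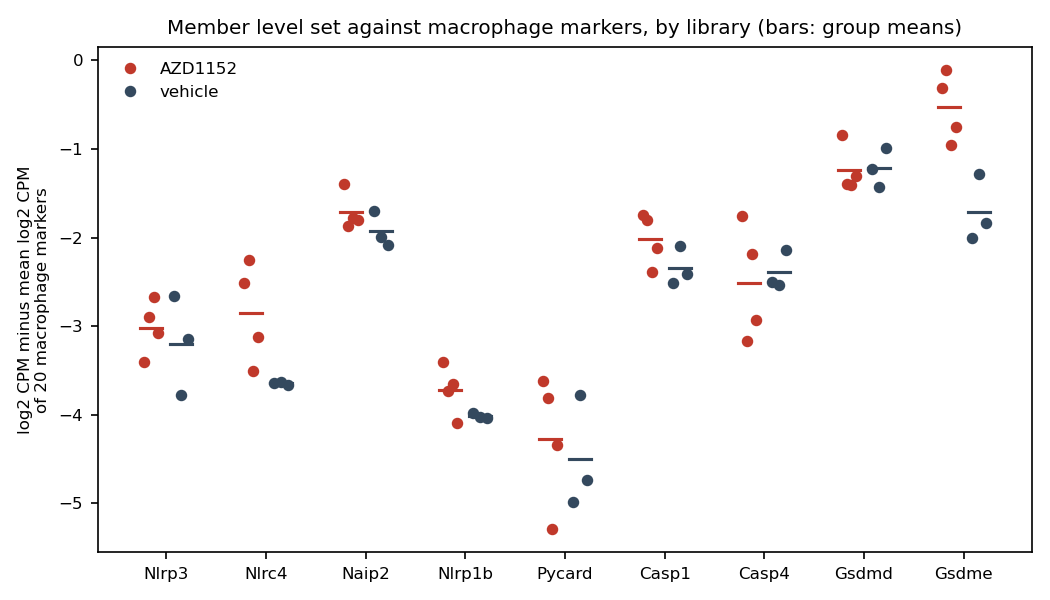
Log2 CPM of each gene minus the mean log2 CPM of 20 macrophage markers in the same library (vertical axis), with 1 point per mouse and group means as bars. The groups overlap for 7 genes, and the AZD1152 points of Gsdme and Nlrc4 lie above the vehicle points.

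Over 4 lists of other pathway genes, 51 genes were matched, 39 passed the filter, 15 fell and 0 rose. The 15 are 38.5% of those tested, beside 4.81% of all genes, and the median log2 fold change was -0.99. At an unadjusted p under 0.05, 24 were lower and 2 higher, and DESeq2 called 19 lower and 0 higher. The count of 15 was 8 without AZD1152 replicate 4, 7 without vehicle replicate 1 and 6 without vehicle replicate 3. Only 5 of the 15 calls (Pyhin1, Zbp1, Gbp3, Casp12 and Tnfaip3) held without any 1 of the 7 libraries. Macrophage and T cell markers were lower in the same kidneys, with medians of -0.95 and -1.35, and several genes of these lists are also interferon-induced.

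Of 8 other sensors and adaptors tested, 4 fell. Zbp1, a sensor of Z-form nucleic acids upstream of NLRP3 and of necroptosis, had 5.98, 3.05, 3.96 and 7.78 CPM in AZD1152 kidneys, against 18.8, 22.3 and 20.2 CPM in vehicle kidneys. Its log2 fold change was -1.98 ± 0.27 (adjusted p = 0.00951, edgeR), the largest fall in the 4 lists. Pyhin1, of the interferon-induced PYHIN family, fell by 1.62 ± 0.25, Naip6 by 1.68 ± 0.34 and Aim2, the sensor of cytosolic DNA, by 1.06 ± 0.26 on the log2 scale (adjusted p = 0.0118, 0.0246 and 0.0416, edgeR). Leaving out 1 library ended the Aim2 call in 5 and the Naip6 call in 4 of 7 fits (adjusted p up to 0.164 and 0.101). Nlrp6, an NLR gene known from epithelia, had 96.9 ± 11.7 CPM in AZD1152 kidneys and 77.4 ± 12.2 CPM in vehicle kidneys (SD). It had a log2 fold change of 0.32 ± 0.12 and did not pass the test (adjusted p = 0.146, edgeR). Mefv, which encodes the sensor pyrin, Naip5, a receptor of bacterial flagellin, and Tlr5, the surface receptor of flagellin, had -1.49 ± 0.51, -0.87 ± 0.30 and -1.04 ± 0.46 on the log2 scale, with overlapping groups (adjusted p = 0.112, 0.117 and 0.202, edgeR). Nlrp1a, Nlrp10, Nlrp12 and Naip1 did not pass the filter on low counts.

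Among 18 genes that prime, license or restrain inflammasomes, 8 fell and 10 were not called. The interferon-induced GTPase genes Gbp3, Gbp5 and Irgb10, whose products act on bacterial membranes and aid caspase-11 and AIM2 activation, fell by 1.51 ± 0.20, 1.20 ± 0.23 and 1.66 ± 0.32 on the log2 scale (adjusted p = 0.00951, 0.0207 and 0.0212, edgeR). P2rx7, the ATP-gated channel that triggers NLRP3, had 6.10 ± 0.74 CPM in AZD1152 kidneys and 10.1 ± 1.30 CPM in vehicle kidneys, and Panx1, an ATP-release channel, 2.63 ± 0.46 and 5.25 ± 0.18 CPM (SD). Both fell (adjusted p = 0.0263 and 0.0224, edgeR), and leaving out AZD1152 replicate 4, vehicle replicate 1 or vehicle replicate 3 ended both calls, and AZD1152 replicate 1 or 2 that of P2rx7 (adjusted p up to 0.109 for P2rx7 and 0.0797 for Panx1, edgeR). Tnfaip3, a feedback inhibitor of NF-kB, and Trim30a fell by 1.10 ± 0.13 and 0.95 ± 0.18 in log2 units. The Gbp5 call ended without vehicle replicate 3, that of Irgb10 without vehicle replicate 1, and that of Trim30a without either (adjusted p up to 0.0758, 0.0521 and 0.0627, edgeR). Of the 10 genes not called, Gbp2, a further GTPase gene, had 149 ± 61.1 CPM in AZD1152 kidneys and 364 ± 124 CPM in vehicle kidneys (SD), without overlap (log2 fold change -1.28 ± 0.35, adjusted p = 0.0566, edgeR). Card9, an adaptor of myeloid cells, had -1.16 ± 0.41, Casp8 -0.17 ± 0.11 and Serpinb1a, an inhibitor of serine proteases, -0.03 ± 0.16 on the log2 scale, all with overlapping groups. Dpp8, a relative of Dpp9, was the one gene of the 18 with every AZD1152 value above every vehicle value, at 0.17 ± 0.07 (adjusted p = 0.173, edgeR). Nek7, the kinase that NLRP3 binds, had -0.08 ± 0.07, Brcc3 0.03 ± 0.09, Dpp9, which restrains NLRP1, 0.09 ± 0.07, and Txnip 0.30 ± 0.22 on the log2 scale. Irf2, a factor known to drive Gsdmd transcription, had 28.3 ± 2.77 CPM in AZD1152 kidneys and 32.5 ± 0.67 CPM in vehicle kidneys (log2 fold change -0.20 ± 0.10, adjusted p = 0.236, edgeR). Its groups did not overlap but came close, at 31.4 CPM in AZD1152 replicate 3 and 31.9 CPM in vehicle replicate 1.

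Of 10 cytokine and receptor genes tested, 3 fell: Il18, Il18bp and Il18r1. DESeq2 called 6 and limma-voom 4, all lower, and Il1a did not pass the filter on low counts. Il18, a substrate of caspase-1, had 1.09, 1.19, 2.30 and 1.41 CPM in AZD1152 kidneys, against 3.72, 2.74 and 3.82 CPM in vehicle kidneys. The groups did not overlap, and it fell by 1.19 ± 0.29 on the log2 scale (adjusted p = 0.0423, edgeR). Il18bp, the soluble antagonist of interleukin-18, and Il18r1, a chain of its receptor, fell as well, the antagonist by 1.30 ± 0.30 (adjusted p = 0.0366, edgeR), while the receptor chain fell by 1.33 ± 0.31 (adjusted p = 0.0365, edgeR). The 3 calls ended on leaving out 5, 6 and 5 of the 7 libraries in turn (adjusted p up to 0.158, 0.0804 and 0.119, edgeR), and Il18bp shares exonic positions with Numa1. Il18rap, the other chain of the receptor, had 1.38 ± 0.46 CPM in AZD1152 kidneys and 2.93 ± 0.43 CPM in vehicle kidneys (SD), without overlap, and was not called (log2 fold change -1.09 ± 0.30, adjusted p = 0.0599, edgeR). Il1b, the other main substrate, had 1.51, 2.79, 7.34 and 4.53 CPM in AZD1152 kidneys, against 8.96, 6.50 and 9.98 CPM in vehicle kidneys. AZD1152 replicate 3 lay inside the vehicle range, and the log2 fold change of -1.07 ± 0.43 did not pass the test (adjusted p = 0.162, edgeR). Il1b shares exonic positions with Il1bos. The log2 ratio of Il18 to Il1b differed by 0.07 ± 0.28 (SE) between the groups, so a difference between the 2 cytokine transcripts was not visible. Il1rn, the receptor antagonist, and Il33 had log2 fold changes of -1.03 ± 0.29 and -0.63 ± 0.18 (adjusted p = 0.0659 and 0.062, edgeR). Neither gene overlapped between the groups. The interleukin-1 receptor genes Il1r1, Il1r2 and Il1rap had -0.34 ± 0.13, -0.47 ± 0.59 and 0.14 ± 0.16 on the log2 scale and were not called either. Of these, only Il1r1 did not overlap between the groups. No test was made of a difference between the interleukin-18 and interleukin-1 genes.

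Among the remaining gasdermins and rupture genes, 3 of 10 were tested (Pjvk, Ninj1 and Chmp4b) and 0 were called, in edgeR, in DESeq2 or at an unadjusted p under 0.05. Ninj1, which ruptures the membrane after pore formation, had 106 ± 10.4 CPM in AZD1152 kidneys and 105 ± 10.5 CPM in vehicle kidneys, with a log2 fold change of 0.02 ± 0.10 (adjusted p = 0.942, edgeR). Pjvk, a further gasdermin, and Chmp4b, of the membrane repair machinery, had -0.46 ± 0.28 and -0.05 ± 0.06 on the log2 scale. Gsdma2, Gsdma3 and Gsdmc had 0 counts in all 7 libraries, so that up to 0.212 CPM is possible in the shallowest library, and the other gasdermins Gsdma, Gsdmc2, Gsdmc3 and Gsdmc4 did not pass the filter.

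**Figure D4:**
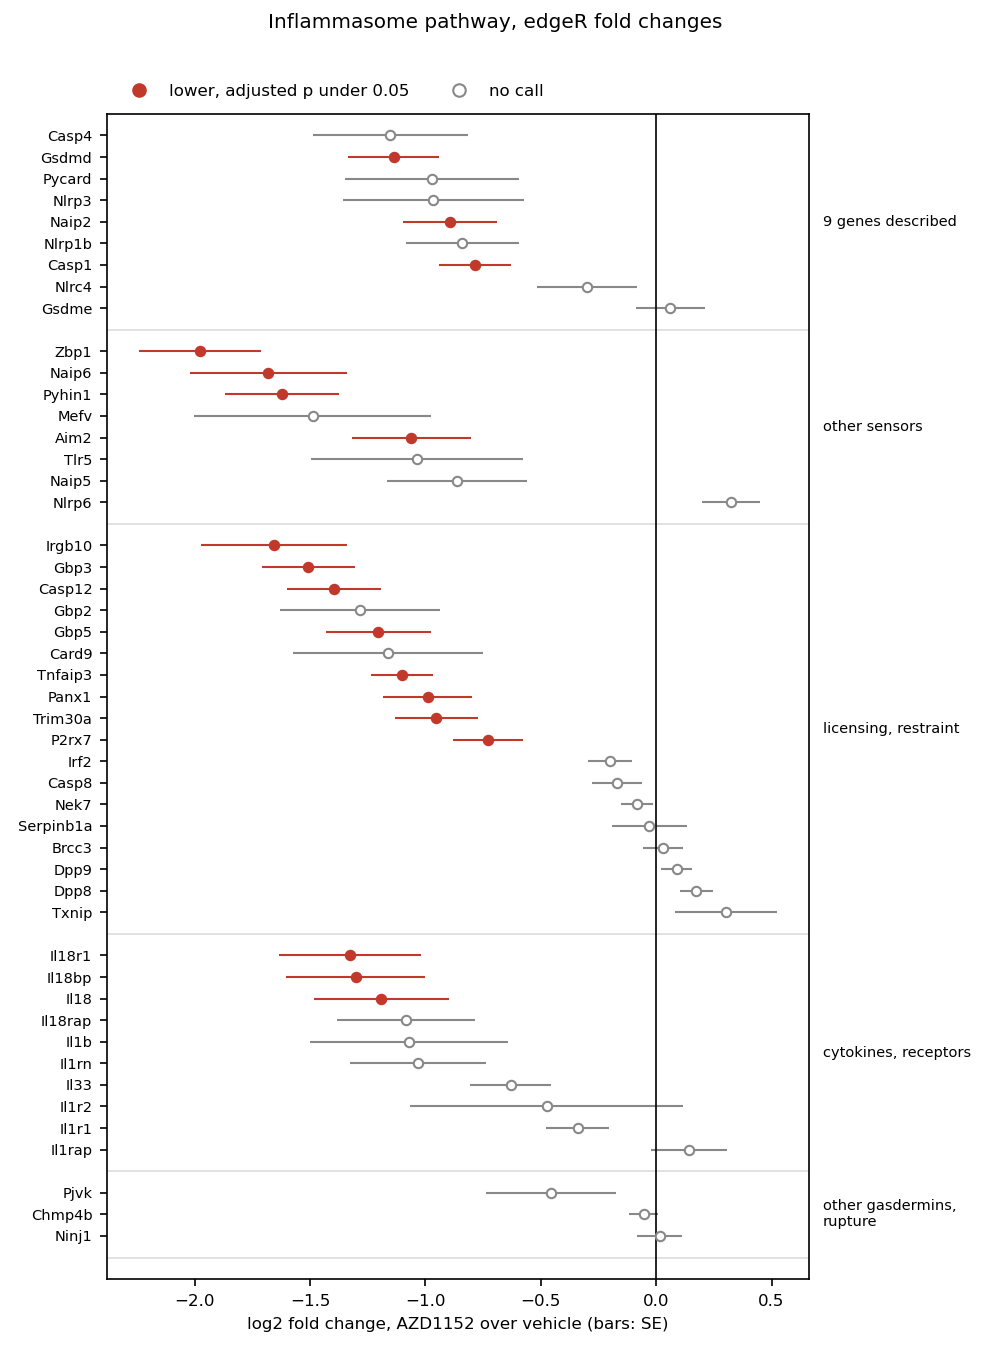
Log2 fold change of AZD1152 over vehicle with its SE (horizontal axis) for the 9 genes and for 39 other pathway genes by list. Filled red points are lower at an adjusted p under 0.05 (3 of 9 and 15 of 39), and open grey points were not called. Gsdme, Ninj1, Chmp4b, Nek7, Brcc3, Dpp9 and Serpinb1a lie between -0.1 and 0.1.

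Genes whose pattern over the 7 libraries was most like that of a member were found by the smallest root mean square difference in centred log2 CPM among 11474 genes. For Casp1 these included Trafd1 and Samhd1, at 0.085 and 0.095, where the median gene of the pool was at 0.438. For Gsdmd they were Sp110, Pik3cd and Myo1g (0.102, 0.125 and 0.138; median 0.644). For Naip2 they were Ppp1r18, Fam111a and Irf5 (0.091, 0.096 and 0.110; median 0.539), and for Nlrp3 Cd300c2, Tlr8 and Lyl1 (0.117, 0.154 and 0.168; median 0.725). Gsdme lay nearest to Pogz, Gata3 and Pradc1 (0.039, 0.054 and 0.057; median 0.226). Pycard had no close neighbour, with its nearest gene, Inpp4b, at 0.305 (median 0.632).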

How the data were processed

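The authors deposited raw read counts, 1 column per mouse. Per the labels' protocols, poly(A) RNA was selected with oligo(dT) beads and a TruSeq RNA kit gave the libraries. Per the submitters' processing notes, CASAVA, HISAT2 2.0.5, DESeq2, DESeq and the build GRCm38 were used. Which counter, strand setting and annotation were used is not given in the sources used here.

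Groups came from the sample titles. All 7 columns were used, and no 2 libraries agreed within sampling noise (21 pairs, with a chi-square of at least 9.97 per degree of freedom). The series text speaks of separate mice. Counts were filtered with filterByExpr, scaled by TMM and tested with edgeR 4.0.16 (R 4.3.3; quasi-likelihood test on group, two-sided, Benjamini-Hochberg over 15774 genes, threshold 0.05). SE was taken as the absolute log2 fold change over the root of F. CPM are TMM-scaled, and log2 CPM used a prior count of 2. Names, coordinates and lengths are from GENCODE M21, which named 53274 of 53465 genes. All 168 list genes matched, 2 through a RefSeq synonym. The steps were tested on simulated counts. Members, lists and tests were chosen with earlier results of these data known. The rule for named genes took all 9 members, the called genes of the pathway and interferon lists and up to 4 genes a list with the smallest p. The other tested genes of the pathway lists, and some of the interferon list, were added after their values were seen. A few genes planned for those lists are not reported here. Alternatives were other scalings and filters, DESeq2 1.42.0, limma-voom 3.58.1, summed gene families, a replicate block and leaving out each library.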

Additional observations from a re-analysis of the deposited data

Results flagged for a closer look

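Casp1 in AZD1152 replicate 4 stood apart from the other 3 AZD1152 kidneys at 5.10 CPM, where they had 4.11, 4.11 and 4.15 CPM. It still lay below all vehicle kidneys, and chance sets about 1 in 20 groups apart in this way. Pycard in AZD1152 replicate 3 was low beside its group at 0.447 CPM, from 7 counts, where the other 3 had 0.929 to 1.03 CPM. That gap was 0.831 of the range, close to the limit.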

How the results depend on the processing

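Of 137 alternative values of the 9 members' log2 fold changes, 120 kept their direction and side of the threshold, 12 lost a call, 3 gained one and 2 changed sign. Both sign changes were of Gsdme, which was not called, at -0.0891 with total counts alone and -0.0444 without vehicle replicate 1, within a range of -0.0444 to 0.229 over the fits that left out 1 library. The number of members called lower was 3, with 3 or 4 under other scalings, filters and tools, and 0 to 3 when 1 library was left out. The number called higher was 0 in every fit. Other pathway genes called lower numbered 15, with 6 to 13 when 1 library was left out. Over all genes 1235 were called, 759 lower and 476 higher, with 2082 (1139 and 943) in DESeq2, and total counts alone gave 1482 lower and 232 higher. Leaving out 1 library gave 223 to 1094 calls, of which 163 to 619 were lower and 60 to 475 higher. Replicate numbers are shared by both groups but come from different mice, and the deviations of same-numbered libraries correlated at -0.29, 0.21 and -0.12, so the numbers do not pair the samples. Replicate 2 alone of the AZD1152 libraries correlated best with its own number. With a replicate block 209 genes were called (146 lower and 63 higher), with 1 member (Gsdmd) and 4 other pathway genes lower. AZD1152 replicate 4 has no vehicle library of its number, so the fit with a block gave it no weight in the group comparison. The cause of these shifts was not tested. Without vehicle replicate 1, 2 or 3, the calls over all genes numbered 398, 1094 and 223. Depth limits Pycard and Nlrp1b most, at 7 to 43 and 15 to 42 counts a library.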
